A study of Mus musculus with 7 samples.

Results

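Gamma-delta T cells are described here as the cells that the deposited cell table names Gamma-Delta T cells. There were 219 of them among 28644 cells, and 13692 cells carried a T cell name of any kind. They came from 7 mice with intracranial CT-2A glioma, a transplantable mouse brain tumour line, injected as 50000 cells in 3 μL at 8 to 12 weeks of age. The 4 knockout (KO) mice were Sall1CreERT2 x Siglecefl/fl and the 3 wild-type (WT) controls were Siglecefl/fl without Cre, so every mouse carried the floxed Siglece allele. All 7 received 2.5 mg tamoxifen per injection, each day from day 7 to day 21 after tumour injection and then on alternate days. Live CD45+ and/or CD11b+ cells from the tumour-bearing hemisphere were thawed from frozen suspensions and sorted, and 5′ single-cell RNA libraries were made with 1 library per mouse. The design text describes the knockout as specific to microglia. In the brain the Sall1 promoter that drives the inducible Cre is active mainly in microglia. RNA was counted as UMIs (unique molecular identifiers, each 1 counted RNA molecule). The genotype comparison in these lymphocytes asks how they differ in tumours whose microglia were targeted.

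Gamma-delta T cells carry a receptor made of a gamma and a delta chain in place of the alpha and beta chains of CD4 and CD8 T cells. A subset that leaves the thymus before birth rearranges the gamma variable segment Trgv6 with the delta variable segment Trdv4, settles in tissues including the brain's meninges, and makes interleukin-17A. That subset depends on transcription factors that include Sox13, Maf and PLZF (Zbtb16) and responds to interleukin-1β and interleukin-23.

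The receptor segments that separate these cells from other T cells are shown first, since the check of the name rests on them. The 3 lines give the last 60 coding bases of Trgv6 (chr13:19190870-19190929, plus strand), of Trdv4 (chr14:54075456-54075515, plus strand) and of Trav1, an alpha segment (chr14:52428817-52428876, plus strand), in GRCm38 with GENCODE M21 annotation. The capitals mark the last in-frame TGT, a cysteine codon.
Trgv6: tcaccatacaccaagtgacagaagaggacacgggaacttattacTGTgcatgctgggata
Trdv4: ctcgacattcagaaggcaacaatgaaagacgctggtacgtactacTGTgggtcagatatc
Trav1: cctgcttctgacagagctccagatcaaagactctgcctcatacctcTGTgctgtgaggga

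KO 1 to KO 4 gave 27, 11, 11 and 11 cells of the name, and WT 1 to WT 3 gave 80, 50 and 29. Summed per mouse they held 22141 UMIs (KO 2) to 317602 UMIs (WT 1), so 3 UMIs of a gene, the level that a count of 0 still allows, equalled 9.45 CPM (counts scaled to a total of 1000000 per mouse) in WT 1 and 135.5 CPM in KO 2. The median cell held 1959 to 4373 UMIs, against 3291 to 8606 in cells named CD4, CD8 or NK. Some barcodes occurred in more than 1 library (926 cells), among them 11 cells named gamma-delta, of which none shared its barcode with another cell of the name. KO 1, KO 2 and WT 3 were female by their sex-linked transcripts and the other 4 mice male. In cells with a microglia name, Siglece UMIs numbered 2, 1, 0 and 0 in KO 1 to KO 4 (30, 21, 13 and 49 cells) and 20, 19 and 7 in WT 1 to WT 3 (113, 92 and 96 cells). Scaled to depth these were 10.7, 19.6, 0 and 0 CPM in KO and 36.1, 45.9 and 18.6 CPM in WT. KO 2, on 1 UMI, thus lay above WT 3, and so few cells do not show how far Siglece was lost.

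Delta chain and Trgv6 transcripts matched the name in 5 mice and were found in few cells of KO 4 and WT 3. A UMI of Trdc (the delta constant region), Trdv4 or Trgv6 was found in 18 of 27, 7 of 11 and 11 of 11 cells in KO 1 to KO 3, and in 76 of 80 and 35 of 50 cells in WT 1 and WT 2. It was found in only 1 of 11 cells in KO 4 and 1 of 29 in WT 3. In WT 3, 24 of the 29 cells instead had UMIs of alpha or beta variable segments (Trav or Trbv) alone, as had 7 of 11 in KO 4, against 8, 3 and 0 cells in KO 1 to KO 3 and 1 and 8 in WT 1 and WT 2. A further 34 of the 219 cells had both kinds, 3, 2, 5 and 0 in KO 1 to KO 4 and 20, 3 and 1 in WT 1 to WT 3. The Trav counts include segments whose names mark them as delta segments too (dv). In WT 1, Trav15d-2-dv6d-2 and Trav15n-2 gave 11 UMIs each of 26 Trav UMIs, so some cells counted with Trav may hold a delta segment. Among B cells, which should lack these chains, Trav or Trbv UMIs were found in 0 of 8, 4 of 40, 17 of 41 and 38 of 273 cells in KO 1 to KO 4 and in 0 of 96, 24 of 357 and 5 of 25 in WT 1 to WT 3. In cells of the name either was found in 11 of 27, 5 of 11, 5 of 11 and 7 of 11 in KO 1 to KO 4 and in 21 of 80 in WT 1. The share in cells of the name was near that of B cells in KO 3 and above it in the other mice, KO 4 and WT 3 among them. Trav1, which is also the segment of the invariant alpha chain of mucosal-associated invariant T cells, was seen in 10 of the 29 cells of WT 3, in 2 cells of KO 1, in 4 of WT 2 and in none of the other mice. Other gamma segments were not absent from KO 4 and WT 3. Trgc1, a gamma constant region, stood at 70.7 and 95.5 CPM there (2 and 7 UMIs), against at most 15.3, 27.0 and 11.1 CPM in CD4, CD8 and NK cells. In KO 4 that value lay under the level of 3 UMIs, 106 CPM. Trgv4 gave 1 and 10 UMIs and Trgv2 gave 3 and 11. The whole list of 24 gamma-delta receptor genes summed to 460 CPM in KO 4 and 586 CPM in WT 3. In CD8 cells of these mice it summed to 528 and 465 CPM, in CD4 cells to 80.9 and 93.5 CPM and in NK cells to 265 and 204 CPM. On this sum KO 4 thus lay below its own CD8 cells. KO 4 and WT 3 are therefore called by their labels only. Some results are also given without them, and all other counts, means and rankings include them.

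Trdv4 stood at 1755, 1581 and 1548 CPM in KO 1 to KO 3, at 2106 and 1293 CPM in WT 1 and WT 2, and at 0 in KO 4 and WT 3. Trgv6 ran at 563, 632, 1047 and 0 CPM in KO 1 to KO 4 and at 822, 643 and 13.6 CPM in WT 1 to WT 3. Trdc gave 271, 316, 205 and 35.4 CPM in KO 1 to KO 4, and in WT 1 to WT 3 it gave 526, 310 and 0 CPM. For all 3 genes the split ran between KO 4 and WT 3 on one side and the other 5 mice on the other, not between the genotypes. Cd163l1, a scavenger receptor gene of the Trgv6 subset, followed the same order, at 975, 994, 1844 and 0 CPM in the KO mice and 1855, 1092 and 13.6 CPM in the WT mice. Constant gamma segments are near-identical copies whose reads the counting could share out, so their values are less certain.

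**Figure D1:**
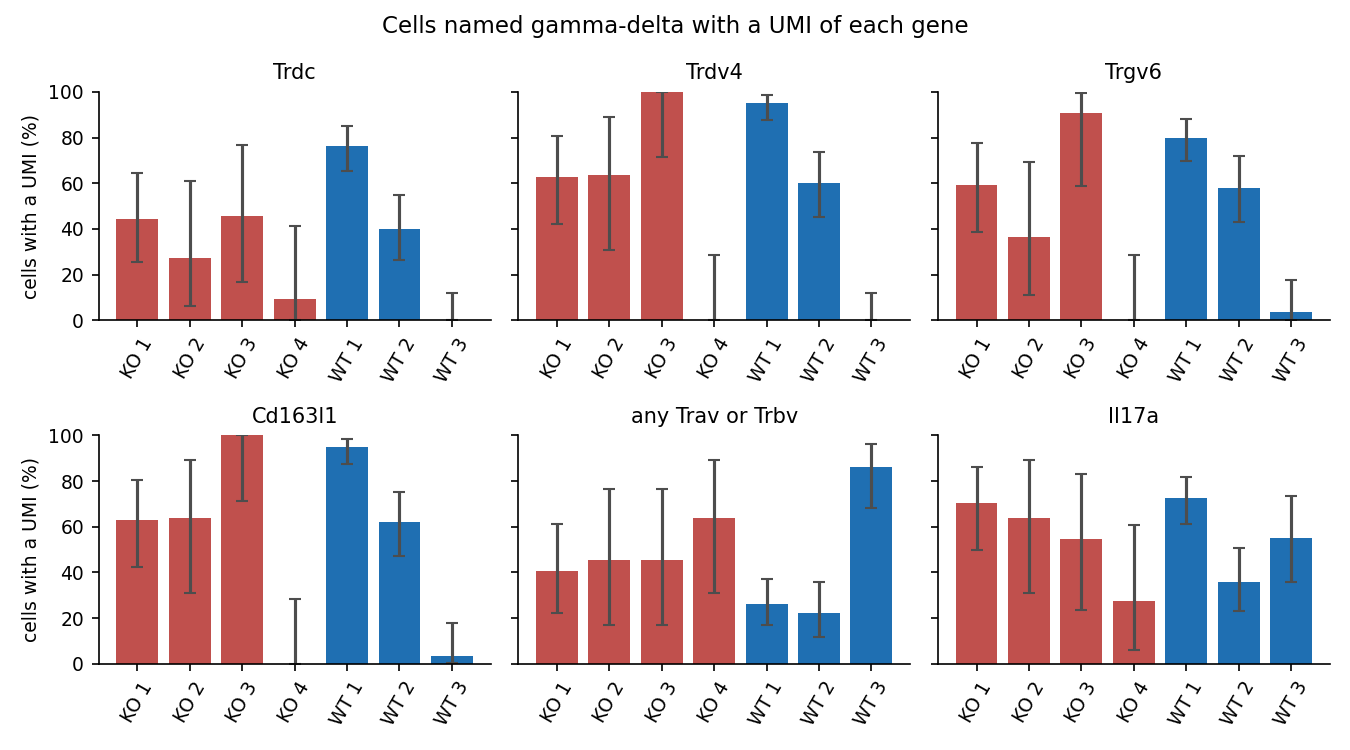
Percent of cells named gamma-delta with at least 1 UMI of Trdc, Trdv4, Trgv6, Cd163l1, any Trav or Trbv segment, or Il17a, per mouse (bars, exact Clopper-Pearson 95% intervals for counting error only, red KO, blue WT). Trdv4 reaches 95% in WT 1 and 100% in KO 3 and is 0 in KO 4 and WT 3, where Trav or Trbv are found in 63.6% and 86.2% of cells.

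Trgv6 took 55.3%, 48.3% and 73.0% of gamma variable UMIs in KO 1 to KO 3 and 69.8%, 61.5% and 4.35% in WT 1 to WT 3, while KO 4 had only 4 such UMIs. A cell with both a Trdv4 and a Trgv6 UMI was nearly specific to the name: 118 of 219 cells named gamma-delta had both, and 10 cells of every other name together, 5 of them T cells and 2 NK cells. Trdv4 alone was less so, since 29.8% of NK cells (mean of 7 mice) also had a Trdv4 UMI. With every cell thinned to 1000 UMIs, Trdv4 was found in 44.9% ± 32.3 of cells named gamma-delta and 7.28% ± 2.09 of NK cells (SD, n = 7), against 0.00511% of B cells. The median depths were 2893, 5126 and 7302 UMIs.

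Cells of the name with and without these chains were compared within each mouse (Cd163l1, Blk and Lck were chosen after their values were seen). Of the 70 cells without a chain, 10 came from KO 4 and 28 from WT 3. Cd163l1 was found in 16 of 18, 7 of 7, 11 of 11 and 0 of 1 cells with a Trdc, Trdv4 or Trgv6 UMI in KO 1 to KO 4 and in 75 of 76, 30 of 35 and 0 of 1 in WT 1 to WT 3. It was found in 4 of the 70 cells without, 1 each in KO 1, WT 1, WT 2 and WT 3. Lck, the kinase that starts signalling from most T cell receptors, went the other way. It was seen in 1 of 76 cells with a chain in WT 1, 1 of 18 in KO 1 and none in the other mice. Among cells without a chain Lck was seen in 4 of 9, 1 of 4 and 4 of 10 in KO 1, KO 2 and KO 4 and in 1 of 4, 4 of 15 and 13 of 28 in WT 1 to WT 3. Blk, a Src family kinase found in B cells and interleukin-17-producing gamma-delta T cells, had no common direction. It was seen in 9 of 18 cells with a chain against 3 of 9 without in KO 1, in 3 of 7 against 0 of 4 in KO 2 and in 50 of 76 against 1 of 4 in WT 1. In WT 2 the counts were 8 of 35 against 5 of 15, and in KO 4 and WT 3 only cells without a chain had it (1 of 10 and 4 of 28). Il17a was seen in both kinds, in 97 of 149 cells with a chain and 30 of 70 without over all mice. These cells share mice and are counts, not replicates.

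**Figure D2:**
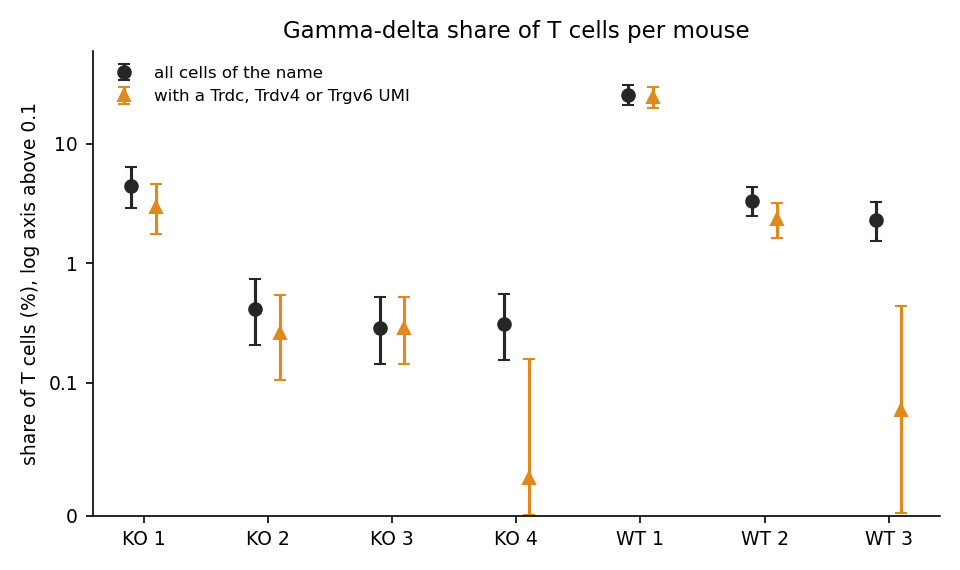
Cells named gamma-delta as a percent of T cells per mouse (points, exact 95% binomial intervals for counting error only, axis logarithmic above 0.1%), for all cells of the name and for those with a Trdc, Trdv4 or Trgv6 UMI. WT 1 stands highest at 25.7%, and KO 4 and WT 3 fall to 0.0282% and 0.0794% when a chain is asked for.

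Cells named gamma-delta made up 4.40%, 0.413%, 0.290% and 0.310% of T cells in KO 1 to KO 4 and 25.7%, 3.32% and 2.30% in WT 1 to WT 3. The genotypes overlapped, since KO 1 stood above WT 2 and WT 3. The mean was 1.35% ± 2.03 (SD, n = 4) in KO and 10.4% ± 13.2 (SD, n = 3) in WT, and the difference did not pass a two-sided exact permutation test (p = 0.0857, 0.257 adjusted over 6 shares, smallest possible p 0.0286). That difference of -9.10 percentage points ranged from -13.2 to -1.46 as single mice were left out, the last without WT 1. KO 1 and WT 1, which held the largest shares, had the fewest T cells (613 and 311), so a share among T cells also moves with the other T cells. Of all sorted cells the name took 0.635% ± 0.853 in KO and 1.53% ± 1.06 in WT (exact permutation p = 0.314). Without KO 4 and WT 3 the difference among T cells was -12.8 percentage points (exact permutation p = 0.2). With these mice left out that test cannot go below 0.05, so its p says nothing.

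Genes of the interleukin-17 programme stood among the highest in these cells. The source of the deposited names is not given in the sources used here, and they may rest on expression of these same cells, so differences from cells named CD4, CD8 or NK are a description and carry no test. A gene is called separated here when its mean difference in log2(CPM + 10) was at least 1 and it had the same sign in all 7 mice. Genes were compared when their mean was at least 20 CPM in either class. A gene low in 1 class thus passes on the other alone, and the counts and medians of the lists below partly follow from that. Of 6914 genes at a mean of at least 20 CPM in either class, 155 were separated upward from CD4 cells (2.24%) and 461 downward (6.67%). Against CD8 cells they were 208 (3.06%) and 393 (5.78%), and against NK cells 277 (4.04%) and 435 (6.34%). Against all 3 at once, 105 of 6491 genes were higher (1.62%) and 119 lower (1.83%).

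The interleukin-17 programme list had 33 members, of which 29 passed the level filter. Some passed on their level in cells named gamma-delta alone, as Il17a did against CD8 and NK cells and Zbtb16 against all 3 classes. The upward counts and medians are therefore partly set by the filter. The list was also chosen with earlier results of these data known, so its counts are a description. Separated upward were 15 against CD4 cells, 20 against CD8 cells and 20 against NK cells, and 1, Batf, was separated downward from CD4 cells, with median log2 differences of 1.98, 3.04 and 3.17, beside -0.23, -0.15 and -0.13 over all genes. Of these, 14 were separated upward from all 3. The list summed to between 7745 CPM (KO 4) and 13795 CPM (KO 1) in cells named gamma-delta and to at most 4159 CPM in CD4, 2120 CPM in CD8 and 2469 CPM in NK cells, so the cells named gamma-delta did not overlap the other classes. Without KO 4 and WT 3 the upward counts were 17, 20 and 21, where 3.33%, 3.93% and 5.49% of all genes were separated upward.

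Il17a, the signature cytokine, stood first among genes of 1 sign in all 7 mice against all 3 classes. That rule leaves out Trdv4 and Cd163l1, which were at 0 CPM in KO 4. Il17a measured 1430.4, 1761, 1320.1 and 248 CPM in KO 1 to KO 4 and 1744, 1177 and 1732 CPM in WT 1 to WT 3. KO 4 was the low sample, and WT 3, where Trdc and Trdv4 were absent, was among the highest. The mean of 1345 ± 536 CPM (SD, n = 7) compared with 23.3 in CD4, 2.10 in CD8 and 7.32 in NK cells, for log2 differences of 5.74 ± 1.31, 6.66 ± 0.94 and 6.48 ± 1.18. With cells thinned to 1000 UMIs, 40.6% ± 12.1 of cells named gamma-delta had an Il17a UMI (54.2% unthinned), against 0.643%, 0.177% and 0.166% of CD4, CD8 and NK cells and 0.00352% of B cells. Il17f, its close relative, was sparse at 86.7, 135 and 0 CPM in KO 1 to KO 3, 0 in KO 4, and 34.6, 7.74 and 164 CPM in the WT mice. Il22 was seen in KO 1 alone, at 86.7 CPM.

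Receptors through which the programme is switched on were also high. Il1r1, the interleukin-1 receptor, measured 282, 135, 45.5 and 70.7 CPM in the KO mice and 428, 108 and 40.9 CPM in the WT mice, with log2 differences of 3.31, 3.52 and 3.61. KO 1 and WT 1 were the high samples and the genotypes overlapped. Il23r, the interleukin-23 receptor, measured 130, 0, 182 and 106 CPM in KO and 183, 85.2 and 54.5 CPM in WT, with KO 2 the sample at 0. It was higher in 6 of 7 mice against each class and so was not separated. Il7r, the receptor for the survival cytokine interleukin-7, averaged 1075 ± 378 CPM against 331 in CD4, 160 in CD8 and 32.8 in NK cells.

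Transcription factors of the programme did not all move one way. Zbtb16 averaged 224 ± 92.4 CPM against 2.54 in CD4 cells, with log2 differences of 4.14, 4.05 and 3.97. Sox13 averaged 71.5 ± 46.9 CPM against 0.70 CPM in CD4 cells and was separated upward from all 3 classes. Maf averaged 227 ± 94.1 CPM and was separated from CD8 and NK cells but not from CD4 cells, as was Rora. Batf, an AP-1 family factor of activated T cells, averaged 64.5 ± 31.7 CPM against 132 CPM in CD4 cells and lay below them in all 7 mice. Ahr was separated upward from CD8 cells alone and Irf4 from NK cells alone, and Sox4 had no UMI in the 219 cells. Every one of the 7 mice had Zbtb16 above each reference, KO 4 and WT 3 included.

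Other genes highest against all 3 classes were Tmem176a and Tmem176b, ion channel genes, Trgc1 (a gamma constant region), Aqp3 (a glycerol and water channel), Blk, Actn2, Abi3bp, Serpinb1a, Mmp25, Sdc1 (syndecan-1) and Cryba4. Tmem176b averaged 981 ± 301 CPM and Tmem176a 599 ± 91.8 CPM. Serpinb1a, a protease inhibitor gene, averaged 345 ± 172 CPM and Aqp3 249 ± 146 CPM. Blk gave 195, 181, 182 and 35.4 CPM in the KO mice, then 340, 147 and 54.5 CPM in the WT mice, and again KO 4 and WT 3 were lowest.

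**Figure D3:**
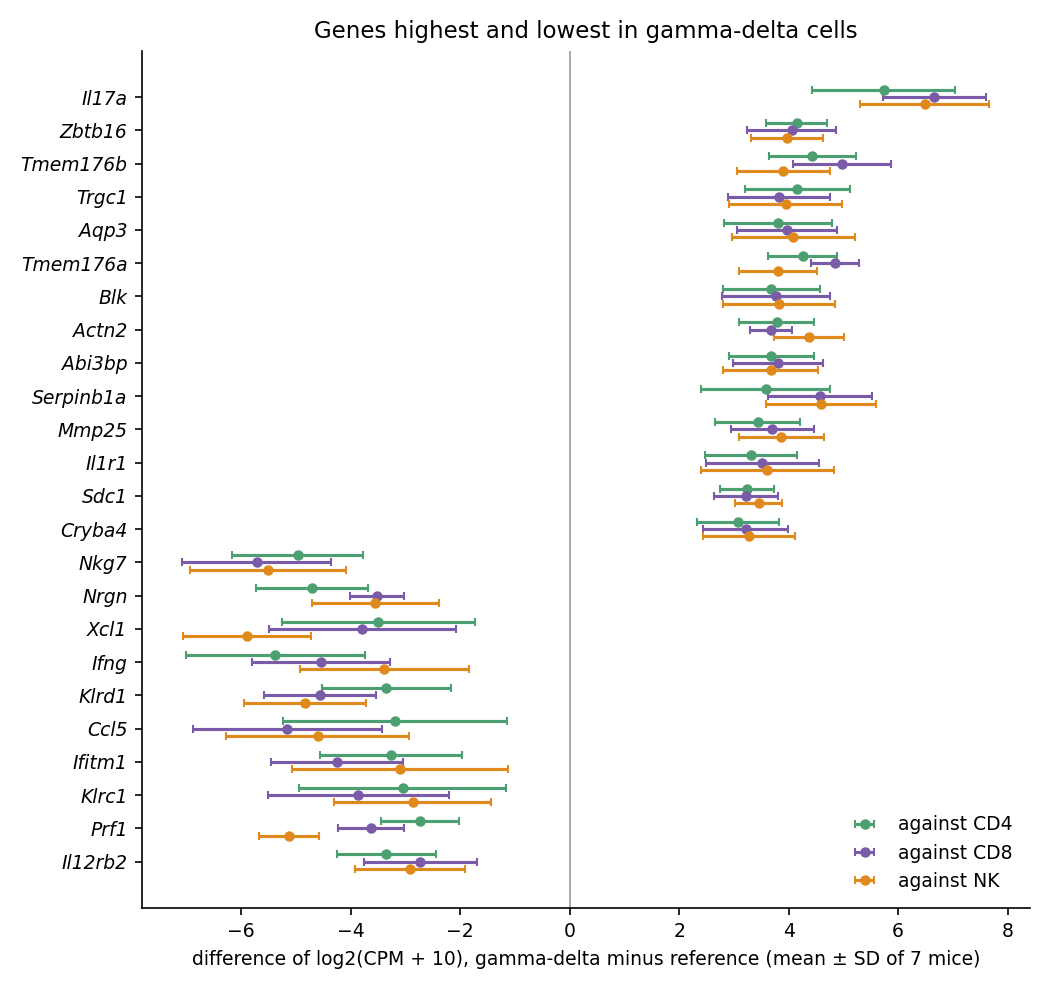
Differences in log2(CPM + 10) between cells named gamma-delta and cells named CD4, CD8 and NK for 14 of the 15 highest and for the 10 lowest genes (points, means of 7 mice, bars SD). Il17a lies farthest right, at 5.74 to 6.66, and Nkg7 between -4.97 and -5.71.

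The interferon-γ and cytotoxic programme was low. Of its 26 members, 14 were separated downward from CD4 cells (22 passing the level filter), 21 from CD8 cells and 22 from NK cells (25 passing for each). Tnf, an inflammatory cytokine gene, was the 1 member separated upward, from NK cells. The median log2 differences were -2.49, -2.73 and -3.23. Without KO 4 and WT 3 the downward counts were 16, 21 and 23, beside 573 of 6957, 501 of 6871 and 552 of 6898 among all genes. The list summed to 1242 to 2110 CPM per mouse in cells named gamma-delta and to at least 5159 CPM in CD4, 11975 CPM in CD8 and 12704 CPM in NK cells. Ifng, the cytokine of type 1 responses, was at 0 in KO 1, KO 2, WT 1 and WT 3, and at 22.8, 70.7 and 23.2 CPM in KO 3, KO 4 and WT 2. It averaged 821 CPM in CD4, 444 in CD8 and 221 in NK cells.

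Nkg7, a cytotoxic granule gene, averaged 43.1 ± 45.7 CPM against 1231, 2038 and 1757 CPM. Ccl5, a chemokine gene of effector lymphocytes, averaged 144 ± 92.7 CPM against 1041, 4060 and 3002 CPM. Prf1 (perforin) gave 4 UMIs in all 7 mice together, Il12rb2 (an interleukin-12 receptor chain) 1, and Nrgn none. Klrd1, Klrc1, Xcl1 and Ifitm1 made up the rest of the 10 lowest genes. Tbx21, the master factor of type 1 cells, averaged 13.1 ± 15.4 CPM against 105, 144 and 190 CPM. Gzmb (granzyme B) was an exception in WT 1, at 771 CPM, where the other 6 mice had 45.2 to 232 CPM.

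Summed markers of NK and myeloid cells lay below their level in those cells themselves. All 12 NK markers were separated downward from NK cells, with a summed level of 141 to 464 CPM against 8497 to 12815 CPM, and Ncr1 and Eomes had no UMI in any mouse. The 16 myeloid markers summed to 1896 CPM (KO 1) to 6572 CPM (KO 2), against 52834 to 73647 CPM in myeloid cells. The sums were 1596 to 3939 CPM in CD4, 1237 to 3496 CPM in CD8 and 4513 to 6389 CPM in NK cells. Within every mouse the sum in cells named gamma-delta lay above that in CD4 and in CD8 cells. It lay above NK cells in KO 2 and WT 3 alone. The 7 B cell markers summed to 0 to 354 CPM. The 15 innate lymphoid cell markers summed to 1500.1 to 2367 CPM, above every CD4 value (1179 to 1407 CPM) and every CD8 value (948 to 1424 CPM) and overlapping NK cells (1394 to 2128 CPM). Id2 and Rora, transcription regulators also expressed by T cells, were the highest of them at 767 ± 287 and 642 ± 256 CPM. Klrg1, Il5, Il13 and Ncr1 had no UMI in any of the 219 cells, and Kit and Il1rl1 were each seen in 1 mouse, on 1 and 3 UMIs. The part of this RNA in the results was not tested.

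Genes of the CD3 complex and of signalling near the receptor were mostly not separated from CD4 and CD8 cells. Of 11 members, Blk was separated upward and Lck downward from each, with list medians of -0.43 and -0.05. Against NK cells 5 were separated upward and Lck downward, with a median of 1.80. Among the coreceptors, Cd8a averaged 6.75 ± 9.15 CPM against 822 CPM in CD8 cells, and Cd4 was at 0 in 5 mice, with 90.3 and 106 CPM in KO 2 and KO 4. Lck gave 108, 45.2, 0 and 177 CPM in the KO mice, then 9.45, 69.7 and 259 CPM in the WT mice, below all 3 classes in all 7 mice, and was highest in WT 3 and KO 4. Lat, the adaptor downstream of the receptor, averaged 754 ± 88.3 CPM against 506, 402 and 79.5 CPM and was separated from NK cells alone.

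Genes of tissue residence were mixed. Of 20 members, Cxcr6, Itgae (the CD103 integrin chain) and Itgb7 were separated upward from all 3 classes, and 2 members downward, among them Itga4. Cxcr6 averaged 719 ± 213 CPM against 264 CPM in CD4, 309 in CD8 and 20.4 in NK cells. Among 10 inhibitory receptors, 5 were separated downward from CD4 and 4 from CD8 cells, with medians of -1.72 and -1.29. Against NK cells Pdcd1 and Ctla4 were separated upward and Tigit downward, with a median of 0.83 (4 upward without KO 4 and WT 3). Lag3 averaged 13.9 ± 34.1 CPM against 319 and 289 CPM, whereas Pdcd1 (PD-1) averaged 583 ± 306 CPM against 610 and 592 CPM.

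Proliferation genes were lower than in the other T cells. Of 20 members, 13 were separated downward from CD4 and 13 from CD8 cells, and 3 from NK cells. The list summed to 1081 to 1634 CPM per mouse, against 2120 to 4506 CPM in CD4 and 2199 to 4776 CPM in CD8 cells. By the deposited cell cycle calls, 25.9% ± 11.7 of cells named gamma-delta were in S or G2M, against 33.0% ± 5.69, 39.1% ± 8.29 and 33.0% ± 6.31 of CD4, CD8 and NK cells, so here the ranges overlapped. Depth also differed between the classes.

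Early response genes that tissue dissociation can raise were high. Of 16 members, 8, 7 and 6 were separated upward from CD4, CD8 and NK cells, and 4, 7 and 6 without KO 4 and WT 3, beside the shares of all genes given above for each setting. Their summed level ran from 20614 CPM (WT 1) to 61599 CPM (KO 3), against 13237 to 28538 CPM in CD4 cells. Jun, an AP-1 transcription factor gene, ranged from 2468 CPM (WT 1) to 12291 CPM (KO 3).

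On the deposited tSNE map the cells of the name formed 2 separate areas. There were 49 cells at tSNE1 from -14.3 to -11.6 and 170 from 1.44 to 12.9, with none between. The lower area held 11.1%, 36.4%, 54.5% and 9.09% of the cells of the name in KO 1 to KO 4 and 10.0%, 52.0% and 3.45% in WT 1 to WT 3, so no genotype held it alone. There 6 heat-shock genes (Hspa1a, Hspa1b, Hsph1, Dnajb1, Hsp90aa1 and Hspa8), whose products fold damaged proteins, summed to 27750 to 42963 CPM per mouse, against 2745 to 5363 CPM in the other area. The lowest of these sums came from 1 cell of WT 3 and the highest from 3 cells of KO 1, and KO 4 also had 1 cell there. Chains were found on both sides, and the same area held 60 naive or early activated CD4 cells and 12 naive or early activated CD8 cells. These genes and this split were chosen after their values were seen.

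**Figure D4:**
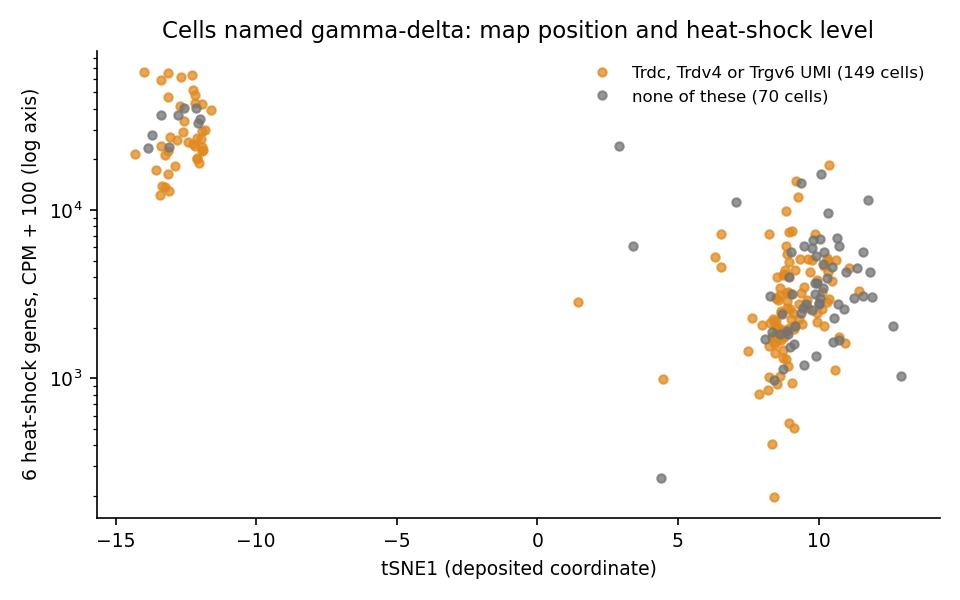
Each cell named gamma-delta at its deposited tSNE1 coordinate (no unit) and the summed CPM of 6 heat-shock genes plus 100 (logarithmic axis), coloured by whether a Trdc, Trdv4 or Trgv6 UMI was found (149 cells) or not (70 cells). The 49 cells below 0 sit higher in heat-shock level than most of the 170 others, and both colours occur in each area.

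Between genotypes, no gene passed in cells named gamma-delta. With edgeR's quasi-likelihood test on sums per mouse, 0 of 1196 genes passed at a Benjamini-Hochberg adjusted p of 0.05 (0%), 59 had an unadjusted p under 0.05 (4.93%), and DESeq2 also called 0, with 35 unadjusted. All KO mice lay above all WT mice for 23 genes (1.92%) and below for 44 (3.68%). Trdc was at a log2 fold change of -0.49 ± 0.97 (SE) and Il17a at -0.33 ± 0.44, with adjusted p of 0.991 and 0.989 by edgeR. Siglece had 1 UMI in KO 1 and 1 in KO 3 and none elsewhere.

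The genes with the smallest unadjusted p among those whose mice did not overlap are named without a call. On the lower side in KO were Bst2 (tetherin), Aldoa_ENSMUSG00000030695 (a glycolytic enzyme), Isg15 (an interferon-induced ubiquitin-like protein), Mxd1 and Ndufa4. Aldoa_ENSMUSG00000030695 had a log2 fold change of -1.08 ± 0.27 (edgeR adjusted p = 0.358) and was called with no filter on low counts (-1.41, adjusted p = 0.00978). Bst2 measured 184, 363, 297 and 249 CPM in KO 1 to KO 4 and 920, 512 and 615 CPM in WT 1 to WT 3. Its log2 fold change was -1.39 ± 0.32 (edgeR adjusted p = 0.252). Bst2 was called with no filter on low counts (-1.71, edgeR adjusted p = 0.00608) and with a minimum of 20 cells per mouse, which leaves 1 KO mouse (-1.93, adjusted p = 0.0173), and stood at -0.77 with equal numbers of cells per mouse. Isg15 measured 32.5, 318, 45.6 and 178 CPM in KO and 687, 333 and 410 CPM in WT, so KO 2 lay just under WT 2. Its log2 fold change was -2.21 ± 0.57 (edgeR adjusted p = 0.585), and without KO 2 it was called (-2.87, adjusted p = 0.0159). Isg15 was also called with no filter (-2.52) and with a minimum of 20 cells (-3.90, 1 KO mouse). A further call of Isg15, in cells with a Trdc UMI, compares KO 1 alone with WT 1 and WT 2, and its fold is not given. On the higher side were Gimap4, Dusp1, Rbm3 (a cold-inducible RNA-binding protein), Sh3glb1 and Snu13, with log2 fold changes of 1.54, 0.77, 0.72, 0.91 and 0.94.

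Interferon response genes had lower values in KO without a call. Of 32 members, 7 had enough counts to be tested, and all 7 had a negative log2 fold change (among them Isg15, Isg20, Irf7, Bst2, Ifi27l2a and Zbp1), with a median of -1.26 beside -0.01 over all genes tested. The filter on low counts asks for a level in at least 3 mice, so a gene high in WT alone passes. Zbp1 passed at 97.6, 0, 228 and 71.0 CPM in KO and 243, 155 and 287 CPM in WT. The signs and the median of the 7 tested members are thus partly set by the filter. None was called, 4 had an unadjusted p under 0.05 (4.93% of all genes did), and 3 lay below WT in all KO mice (Bst2, Isg15 and Irf7, beside 3.68% of all genes). With no filter on low counts 30 of 32 lay below 0 and 3 were called, beside a median of -0.42 over all genes and 0.0585% of them called, and with a minimum of 20 cells, which leaves an arm of 1 KO mouse, 19 of 20 lay below 0 and 4 were called, beside 0.575% of all genes. With equal numbers of cells per mouse only 3 were tested, 2 of them below 0, with a median of -0.57. The list summed to 1681, 2223, 2464 and 2522 CPM in KO 1 to KO 4 and 6193, 3404 and 4291 CPM in WT 1 to WT 3. The genotypes did not overlap in this sum. In CD4 cells the sums were 2831 ± 453 CPM in KO and 3856 ± 894 in WT, in CD8 cells 2175 ± 206 and 3746 ± 1219, and in NK cells 1375 ± 405 and 1792 ± 243 (SD, n = 4 and 3). In myeloid cells the genotypes did not overlap either, at 2689 to 4870 CPM in KO and 4890 to 7932 CPM in WT. The part of myeloid RNA in the interferon sums of cells named gamma-delta was not tested.

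Ifi27l2a showed how a single library could set a call. It measured 54.2, 136, 22.8 and 888 CPM in KO 1 to KO 4 and 655, 419 and 533 CPM in WT, and only KO 4 was high in KO. Its log2 fold change was -1.26 (edgeR adjusted p = 0.941), and it was -3.17 and called without KO 4 (adjusted p = 0.00157). Ifi27l2a was also called with the replicate block (-3.21) and without KO 4 and WT 3 (-3.19), and stood at -3.32 with a minimum of 20 cells (1 KO mouse). All of these settings take KO 4 out of the genotype estimate, so they repeat 1 removal. In the block, number 4 occurs only in KO, and its term absorbs KO 4. Rps3a2, a ribosomal protein gene copy named after its values were seen, had a log2 fold change of 4.21 (edgeR adjusted p = 0.252). It was called in 6 alternatives, at 3.59 to 5.31: no filter, a minimum of 20 cells (1 KO mouse), the replicate block, sex as a term, without KO 4, and without KO 4 and WT 3. Of these, only no filter and sex as a term kept KO 4 in the estimate. The level of Rps3a2 is uncertain, since near-identical copies share reads.

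**Figure D5:**
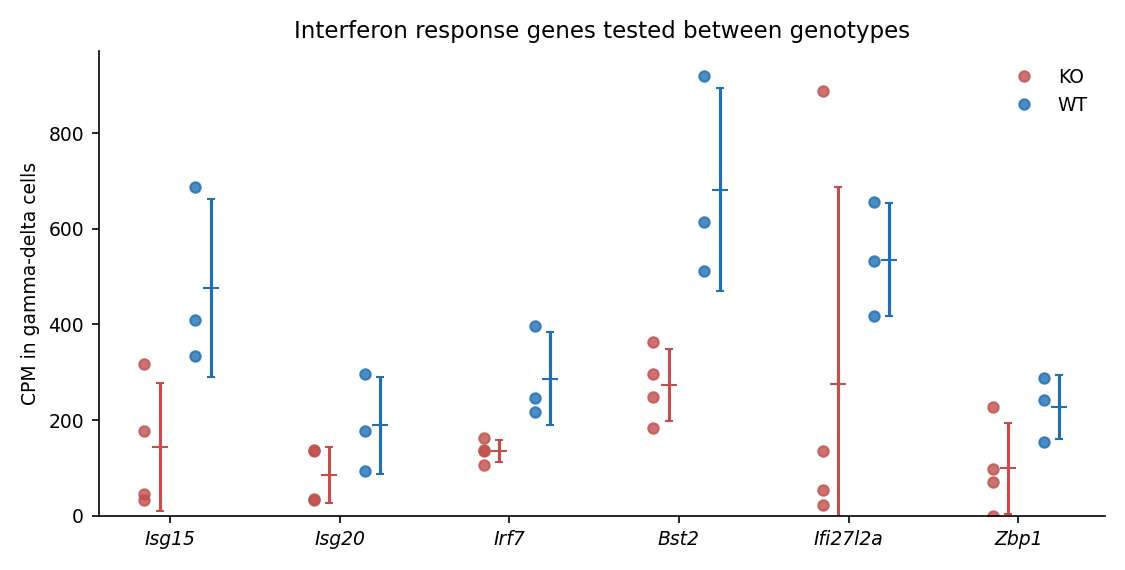
CPM in cells named gamma-delta of 6 of the 7 interferon response genes tested between genotypes (points, mice, bars mean ± SD with the axis starting at 0, red KO, blue WT). Bst2, Isg15 and Irf7 do not overlap, and the single high KO point for Ifi27l2a is KO 4 at 888 CPM.

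No list had a called gene in the fit as reported. With no filter Gzmb (-2.20, edgeR adjusted p = 0.00132) was also called, and the minimum of 20 cells, with 1 KO mouse, also called Ccl5 and the myeloid markers Apoe and Lyz2. Over all 1196 genes tested, 590 lay above 0 and 606 below. Of 19 interleukin-17 programme genes tested, 7 lay above and 12 below 0 (median -0.12). Of 15 dissociation genes tested, 13 lay above 0 (median 0.45). Of 8 glycolysis genes, 7 lay below 0 (median -0.46), and of 10 myeloid markers, 8 (median -0.52). Aldoa was not matched by symbol and is not among the glycolysis genes counted. The part of the dissociation and myeloid levels in the genotype differences was not tested. The share of cells with an Il17a UMI at 1000 UMIs was 40.6% ± 13.7 in KO and 40.7% ± 12.6 in WT (exact permutation p = 0.971), and the share in S or G2M was 20.5% ± 11.4 and 33.0% ± 8.85 (exact permutation p = 0.171).

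Whether the genotype difference itself differed from that in other lymphocytes was tested with a class-by-genotype term in edgeR. Against CD4 cells 2 of 7625 genes passed (0.0262%), against CD8 cells 4 of 7647 (0.0523%) and against NK cells 2 of 5703 (0.0351%). Tcf7, a factor of naive and memory T cells, measured 184, 90.8, 205 and 178 CPM in KO and 28.3, 101 and 27.3 CPM in WT, where WT 2 overlapped KO 2. In CD4 cells it averaged 35.5 ± 10.6 CPM in KO and 72.2 ± 63.7 in WT, with WT 1 at 145 (SD, n = 4 and 3). In CD8 cells the means were 27.1 ± 14.3 and 72.1 ± 52.7 CPM, with WT 1 at 120. Part of each Tcf7 difference thus lies in the reference cells. Its log2 fold change exceeded that in CD4 cells by 2.78 ± 0.56 (SE, adjusted p = 0.00247) and that in CD8 cells by 3.14 ± 0.56 (adjusted p = 1.92e-04). Neither was called without WT 1 (1.29 and 2.03, adjusted p = 1), and that against CD4 was not called without KO 1 (2.46, adjusted p = 0.203).

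Ccl4, a chemokine gene, measured 32.5, 45.4, 22.8 and 0 CPM in KO and 53.5, 93.0 and 164 CPM in WT, on 0 to 17 UMIs. In CD4 cells it averaged 1660 ± 1407 CPM in KO, with KO 1 at 3676, and 956 ± 262 in WT (SD, n = 4 and 3). In CD8 cells the means were 895 ± 216 and 544 ± 379 CPM, so here too part of the difference lies in the reference cells. The Ccl4 difference was -3.21 ± 0.62 against CD4 and -3.12 ± 0.61 against CD8 cells (edgeR adjusted p = 0.00161 and 0.0013). The first was lost without KO 1 (-2.43, adjusted p = 0.647) and without KO 4 and WT 3 together (-2.96, adjusted p = 0.0811), and the second without WT 1 (-2.52, adjusted p = 1). Tnfrsf9 (4-1BB), a costimulatory receptor, measured 21.7, 45.4, 160 and 0 CPM in KO and 224, 240 and 109 CPM in WT, and its difference against CD8 cells was -2.51 ± 0.54 (adjusted p = 0.00619). It was lost without KO 1 (-1.76), KO 2 (-2.52), KO 4 (-2.08), WT 1 (-2.09) or WT 2 (-2.20).

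The Il17a difference against NK cells (4.23, edgeR adjusted p = 1.16e-04) rested on 33 UMIs in the NK cells of WT 3 and was -2.04 without that mouse. It was also not called without KO 2 (4.15, adjusted p = 0.11). Igha against CD8 cells (-13.0) rested on 6 UMIs in cells named gamma-delta, all in WT 2, beside 1853 UMIs in the CD8 cells of KO 1, and a fitted fold with a genotype at 0 has no fixed size. H1f0 against NK cells (-2.79, adjusted p = 0.0294) was not called without KO 1 (-2.61), KO 4 (-2.56), WT 1 (-2.59) or WT 2 (-2.46), nor with no filter (-3.00, adjusted p = 0.0560). With a minimum of 20 cells (1 KO mouse) the calls of Tcf7 (2.62) and Ccl4 (-2.61) against CD8 and of Il17a (3.92) and H1f0 (-2.97) against NK cells were also lost. Over the interferon response list, the differences were below 0 for 25 of 26 genes against CD4, 24 of 29 against CD8 and 20 of 23 against NK cells, with medians of -1.23, -0.65 and -0.83 beside -0.26, -0.23 and -0.12 over all genes, and none was called. Members could enter these fits on their level in the other class alone. Only 7 of the 32 had enough counts in cells named gamma-delta by themselves. The share of all genes below 0 was not counted, and the part of the filter and of depth in these signs was not tested.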

How the data were processed

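Single-cell 5′ RNA libraries of 7 mice (4 KO, 3 WT) were used. The submitters' processing notes name FastQC 0.11.5, STAR 2.7.10a, STARsolo and mm10, and how cells were named is not given in the sources used here. The authors deposited a gene-by-cell matrix of unnormalized expected counts (UMIs, 7.50% of values not whole at a tolerance of 0.001), and a cell table with cell names, counts of detected genes, percent mitochondrial and ribosomal counts, scores for tSNE coordinates, and cell cycle phases. The design had foreseen counts, so sums per mouse and name were rounded. No cell was removed and no doublet caller was run.

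CPM are UMIs of the summed cells scaled to 1000000. Levels were compared as log2(CPM + 10) within each mouse, among genes at a mean of at least 20 CPM in either class, in mice with at least 10 cells of each name. edgeR 4.0.16 (R 4.3.3) gave the genotype and class-by-genotype tests, DESeq2 1.42.0 an alternative, and scipy 1.17.1 the exact permutation tests. Named genes were list members, the 15 highest and 10 lowest genes of 1 sign in every mouse against CD4, CD8 and NK cells, and, with no gene called, 5 a side of smallest p without overlap. Members and 18 gene lists were chosen with earlier results of these data known, and of their genes 273 matched by symbol, 12 by RefSeq synonym and 1 not. The test was checked on simulated data. Intervals cover counting error only, and no label says that mice were handled in batches. A few genes that these rules name are not reported here.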

Additional observations from a re-analysis of the deposited data

Results flagged for a closer look

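KO 1 stood far above the other 3 KO mice in its share of cells named gamma-delta, at 4.40% of T cells, 3.69% of lymphoid cells (T, NK and B) and 1.91% of all cells. Trdv4 was at 0 CPM in KO 4, far below KO 1 to KO 3. Dusp1 stood apart in KO 3 at 4803 CPM and Snu13 in KO 2 at 363 CPM. Each of these was the extreme of 4 KO mice by Dixon's ratio, which was tested in 21 groups, and chance marks about 1 in 20 groups.

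The genotype difference in cells named gamma-delta differed from that in another class for 8 gene and class pairs by edgeR's class-by-genotype term. They were Ccl4 (-3.21 against CD4 and -3.12 against CD8), Tcf7 (2.78 against CD4 and 3.14 against CD8), Igha (-13.0 against CD8), Tnfrsf9 (-2.51 against CD8), Il17a (4.23 against NK) and H1f0 (-2.79 against NK). The single libraries whose removal ended a call are named beside these values in the report, and Igha was not tested without KO 1 or WT 2.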

How the results depend on the processing

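The direction of the T cell, lymphoid, all-cell and cycling shares was the same in the alternatives run. None passed the test with all 7 mice in, and with mice left out the exact test cannot go below 0.05, so its p there says nothing. The Il17a-positive difference changed sign at a thinned depth of 2000 UMIs (3.40) and without KO 4 and WT 3 (9.80), and ranged from -7.43 to 6.46 as single mice were left out. The Trgv6 difference changed sign with no minimum of UMIs (-1.05) and without KO 4 and WT 3 (-6.76), and ranged from -6.76 to 26.0. Using cells with a Trdc UMI alone gave 1229, 1274 and 1459 separated genes against CD4, CD8 and NK (3 mice), and a minimum of 20 cells gave 1104 against NK.

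The genotype calls numbered 8 with no filter on low counts, 15 with a minimum of 20 cells (1 KO mouse, assumed to vary like the others), 1 with sex as a term, 3 in cells with a Trdc UMI (again 1 KO mouse) and 2 without KO 4 and WT 3, and 0 to 2 as single mice were left out. The replicate block, whose term for number 4 absorbs KO 4, gave 2 calls, and under the block Trdc was 0.16. The same-number correlations were 0.151, 0.0528 and -0.166. So few correlations, on sums of as few as 11 cells, cannot show whether the numbers pair the mice. Against CD4, class-by-genotype calls numbered 5 with a minimum of 20 cells and 1 to 17 as mice were left out (17 without WT 2). Against CD8 they numbered 11 without KO 4 and WT 3 and 1 to 17 (17 without WT 3). Against NK they numbered 0 with a minimum of 20 cells, 1 with no filter, 5 without KO 4 and WT 3 and 1 to 7.

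Sh3glb1 changed sign in cells with a Trdc UMI (-0.52), a fit of KO 1 alone against WT 1 and WT 2. Trdc ranged from -0.95 to 0.29 as mice were left out. Il17a changed sign in cells with a Trdc UMI (0.085, KO 1 alone against WT 1 and WT 2) and with equal cells per mouse (0.28). Il17a also changed sign without KO 4 and WT 3 (0.05) and in cells with a Trdc, Trdv4 or Trgv6 UMI (0.11). Its difference against NK was -2.04 without WT 3 (range -2.04 to 4.85) and -1.76 without KO 4 and WT 3. Leaving out KO 4 and WT 3 together, and keeping cells with a chain, were chosen after seeing the data. The causes were not tested.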
